A study of Arabidopsis thaliana with 8 samples.

Results

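The subject is a set of 80 genes of Arabidopsis thaliana whose transcripts were at least 2-fold more abundant than in wild type in each of 3 mutants of the SAGA complex. They were picked from 32548 measured genes by their values. The mean of the 2 libraries was taken per genotype, and L was defined as log2((mutant mean + 1)/(Col-0 mean + 1)). A gene was kept when L reached 1 in each mutant (hag1, ada2b, scs1 scs2a) and its largest genotype mean was 50 normalised counts or more. These thresholds were met by 90 genes, which is 0.277% of the table and 0.472% of the 19081 tested genes with a largest mean of 50 or more. The rule set 10 of the 90 aside by name, and the other 80 are described here. All 80 passed the filter on low values used for testing. RefSeq's annotation gives 42 of them a symbol. It lists 78 as protein coding and 2 as long noncoding RNAs.

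RNA was measured in 12-day-old seedlings raised on MS plates at 22 °C, under 16 h of light and 8 h of dark, by single-end sequencing of 50 bases. Seedlings of wild type (Col-0), of hag1-/-, of ada2b-/- and of the combined mutant scs1-/-scs2a-/- gave 2 libraries per genotype. The labels name no treatment, and they state neither the alleles nor the number of seedlings behind a library. They do not say whether those 2 libraries are separate cultures, so p-values measure only the spread between these libraries, which may be technical.

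SAGA is a coactivator complex conserved from yeast to plants that is recruited to promoters and modifies histones there. HAG1 is the plant GCN5 histone acetyltransferase, and ADA2B is an adaptor that binds it within the same module of the complex. SCS1 and SCS2A are the genes whose combined loss defines the remaining genotype. The genes described here were selected because they rose in every mutant.

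HAG1 itself stood at 296 and 328 normalised counts in Col-0 and at 131 and 133 in hag1 (log2 difference -1.23 ± 0.09 SE, limma adjusted p = 2.92e-05). ADA2B had 708 and 711 in Col-0 and 567 and 613 in ada2b (-0.27 ± 0.07 SE, limma adjusted p = 0.0136). Reads of a disrupted gene can remain, so these levels check the labels only in part, and levels of SCS1 and SCS2A are not reported. Library totals were even, from 20570967 to 22344725 normalised counts, and 1 read was worth about 0.948 to 1.09 of these counts. Markers of seed storage summed to 0 to 19 normalised counts per library and those of floral organs to 144 to 458. Of 12 green tissue markers tested, 10 fell in hag1 and 9 in ada2b, and 8 in scs1 scs2a, against 23, 23.4 and 12.1% of all tested genes. Their summed level was 859841 to 907460 in Col-0, 572617 to 603558 in hag1 and 701159 to 713829 in ada2b, and 630298 to 701343 in scs1 scs2a. Of 22 root markers, 1 rose and 5 fell in hag1, 3 rose and 8 fell in ada2b, and 6 rose and 6 fell in scs1 scs2a, with 21.3, 24.7 and 7.86% of all tested genes called higher. Their summed level was 50232 to 51180 in Col-0, 69374 to 90569 in hag1 and 54480 to 57699 in ada2b, and 64261 to 64470 in scs1 scs2a. The part of these shifts in the members' levels was not tested, and in whole seedlings fewer cells of a type and less RNA per cell cannot be told apart.

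Together the 80 genes took 0.114 and 0.112% of all normalised counts in the Col-0 libraries. Their share was 0.578 and 0.525% in hag1, 0.471 and 0.504% in ada2b, with 0.279 and 0.329% in scs1 scs2a. L ran from 1.02 to 5.31 in hag1 with a median of 2.20, from 1.02 to 4.73 in ada2b with a median of 1.80, and from 1.01 to 3.96 in scs1 scs2a with a median of 1.34. Over all tested genes the medians of L were 0, 0.03 and 0, and L was 1 or more in 6.52, 3.27 and 2.55% of them. These values chose the members and are given as a description without a test. An L of 2 or more was reached by 47 members in hag1 and by 28 in ada2b, and by 9 in scs1 scs2a. At 3 or more there were 12, 4 and 1.

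Every member had both libraries of each mutant above both Col-0 libraries, which the rule makes likely. Over all tested genes this held for 35.6% in hag1 and 39.7% in ada2b, and 30.4% in scs1 scs2a. In a stricter reading, each of the 6 mutant libraries lay at least 2-fold above each Col-0 library for 30 members and not for 50. Just inside the bound on L were AT1G30730 with a lowest L of 1.007, THI2.2 with 1.008 and AT1G51820 with 1.018. Just outside it were AT1G78850 with 0.999, DIN10 with 0.999 and AT1G65500 with 0.988. Around the bound on level, AT1G05675 with a largest mean of 50.6, SOB5 with 54.0 and AT4G34810 with 54.6 were in. AT1G78410 with 48.8, AT4G15670 with 48.5 and PP2-A5 with 46.3 were out.

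**Figure D1:**
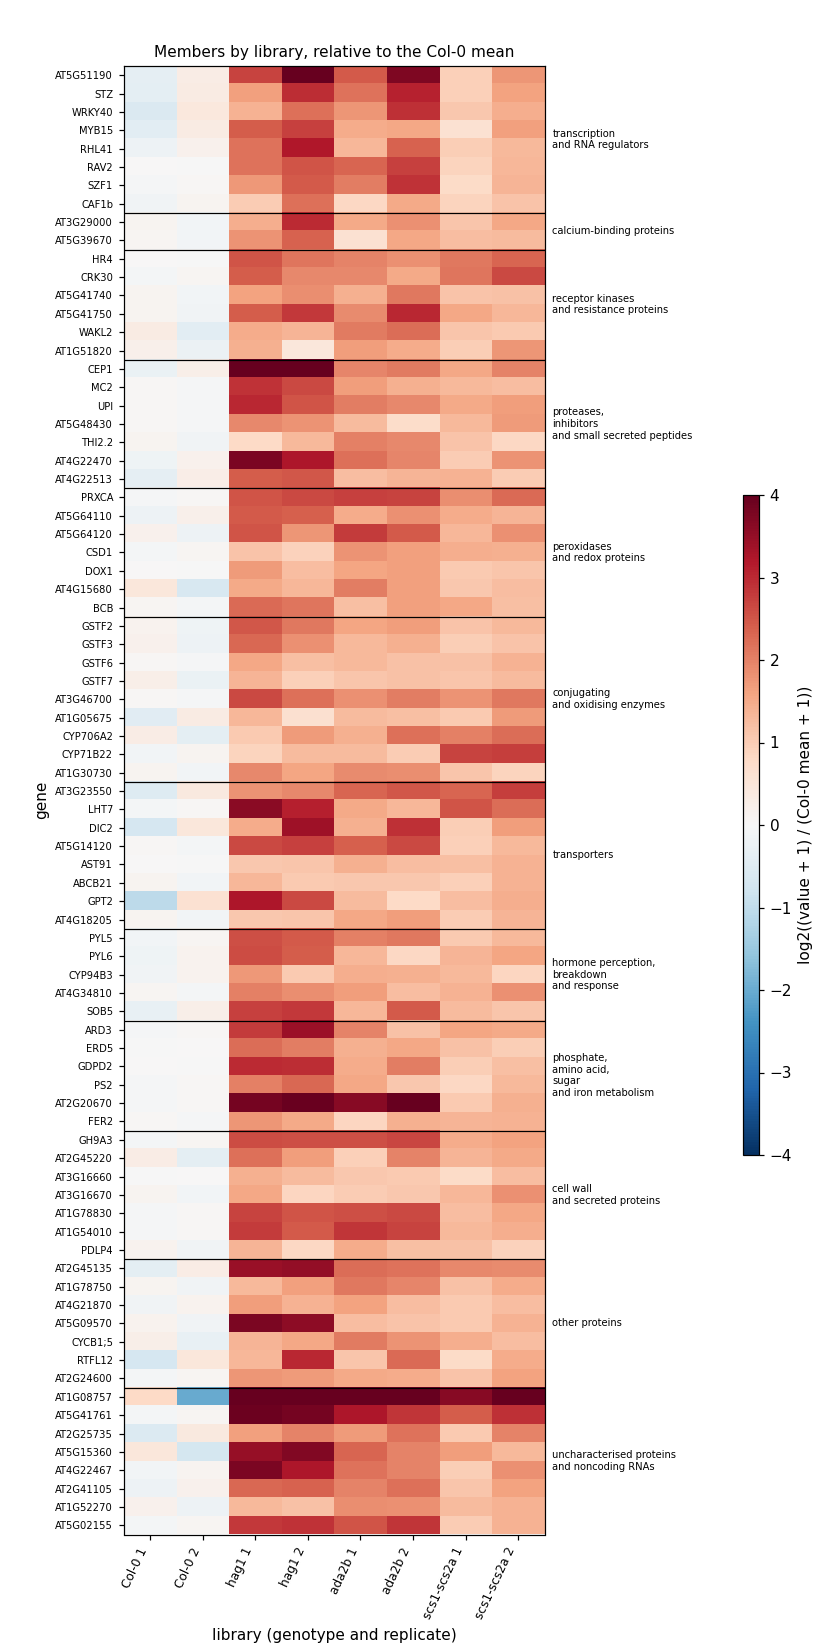
Heat map of the 80 members (rows, ordered by role) in the 8 libraries (columns); colour is log2((value + 1)/(Col-0 mean + 1)) of the normalised counts, and values past 4 are drawn at 4. The mutant columns are darkest in hag1, where the median L was 2.20, and palest in scs1 scs2a, where it was 1.34.

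The mutants were not equal in how far they raised these genes. The mean was highest in hag1 for 48 members, in ada2b for 25 and in scs1 scs2a for 7, and lowest among the mutants in scs1 scs2a for 56. Differences between mutants were tested with limma over all 25459 genes that passed the filter, with adjustment over all of them. The members were chosen from the same libraries, and the 3 mutant pairs share libraries with each other. The rule also set bounds on the very mutant means that these pairs compare. Shares of all tested genes, given beside the calls here and below, carry no such bounds. SOB5 met the bound on level only through its hag1 mean of 54.0, and AT1G05675 only through its scs1 scs2a mean of 50.6. How far the lean in the calls follows from the rule was not tested. hag1 was called above ada2b for 26 members (32.5%) and below it for 6 (7.5%), with 21.2% and 21.6% of all tested genes called in those directions. The difference had a median of 0.26 and ran from -0.91 to 2.48 on the log2 scale. Against scs1 scs2a, hag1 was called higher for 39 members (48.8%) and lower for 2 (2.5%), beside 14.9% and 15.2% of all tested genes, and the median difference was 0.86. ada2b was called above scs1 scs2a for 23 members (28.7%) and below it for 3 (3.75%), beside 14.9% and 14.8%, with a median of 0.39. The medians of these differences over all tested genes were 0.01, 0 and 0.03. Among the 19081 genes with a largest mean of 50 or more, the background was 23.2% and 27.5%, 18.1% and 18.4%, and 19.5% and 16.5%. Leaving out each of the 8 libraries in turn, 17 of the 26, 28 of the 39 and 12 of the 23 higher calls were made in every fit. Without library 1 of scs1 scs2a, ada2b was called above scs1 scs2a for 12 members, and without library 2 of ada2b for 15. Of the lower calls, 2 of the 6, 2 of the 2 and 1 of the 3 were made in every fit. hag1 was called below ada2b for 3 members without either library of ada2b or without library 2 of hag1. ada2b was called below scs1 scs2a for 1 member without library 2 of ada2b or of scs1 scs2a, and for 5 without either library of hag1.

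**Figure D2:**
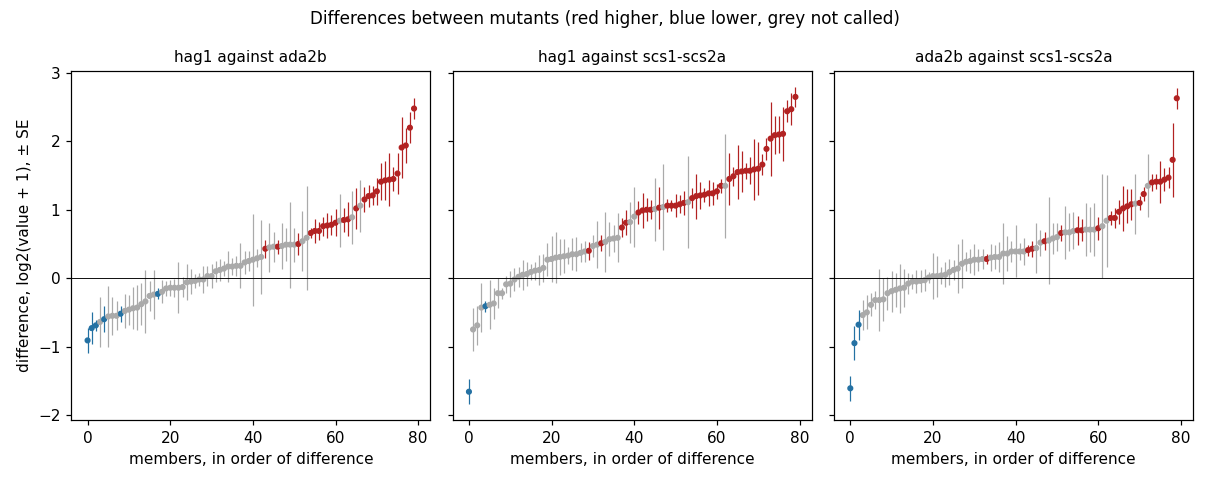
Difference between mutants for each of the 80 members, in order within each panel, on the log2(value + 1) scale with its standard error from limma. Red points were called higher and blue points lower at an adjusted p of 0.05. The calls lean to the higher side, with 39 higher and 2 lower for hag1 against scs1 scs2a. The members were chosen from these same libraries, by bounds on the same mutant means.

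By the calls, 22 members (27.5%) were higher in hag1 than in both other mutants, beside 9.01% of all tested genes, and 16 of the 22 had both calls in every fit without a library. For 18 of these (22.5% of the 80 members) ada2b and scs1 scs2a were not called different, beside 6.28% of all tested genes. A further pattern, with hag1 and ada2b both above scs1 scs2a and no call between them, was found for 14 members (17.5%), beside 3.18% of all tested genes, and 8 of the 14 had both higher calls in every such fit. The 22 include AT4G22467 and AT4G22470, and the 14 include AT5G14120 and AT5G02155, which overlap in pairs on opposite strands. By call, 4 members (AT4G18205, WAKL2, CSD1 and THI2.2) were highest in ada2b and 1 (CYP71B22) in scs1 scs2a, beside 8.7% and 3.85% of all tested genes. Among those 5, THI2.2 and CYP71B22 had both calls in every fit without a library. The excess of CSD1 in ada2b over scs1 scs2a was lost without library 1 of ada2b or either library of scs1 scs2a (limma adjusted p = 0.114 to 0.179), and AT4G18205 and WAKL2 lost calls in both pairs. No pair was called for 27 members (33.8%), beside 43.3% of all tested genes, which does not show that their levels were equal. Of these 27, 12 had a pair called when only the 2 genotypes compared were fitted, and 1 to 5 when a library was left out.

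The regulators of transcription and RNA among the members numbered 8. They include the C2H2 zinc finger proteins STZ and RHL41, known from abiotic stress responses, WRKY40, a WRKY factor of defence and abscisic acid responses, and the R2R3-MYB factor MYB15. AT5G51190 encodes an AP2-type (integrase-type) DNA-binding protein, RAV2 an AP2 and B3 domain protein, SZF1 a CCCH zinc finger protein of salt stress, and CAF1b a deadenylase that shortens poly(A) tails. L in this group had a median of 2.39 in hag1 and 2.50 in ada2b, and 1.18 in scs1 scs2a. Between hag1 and ada2b, limma called none of the 8 different (1 had an unadjusted p under 0.05), beside 21.2% of all tested genes called higher and 21.6% lower. MYB15 came close, with 61.7 and 77.5 in hag1 and 32.0 and 33.1 in ada2b (1.06 ± 0.38 SE, limma adjusted p = 0.0522). The lack of calls does not show that levels were equal. RAV2 stood at 601 and 591 normalised counts in Col-0, 2670 and 3400 in hag1, 3006 and 3959 in ada2b, with 1094 and 1484 in scs1 scs2a. Its hag1 and ada2b libraries overlapped and all exceeded those of scs1 scs2a, by 1.24 ± 0.17 SE (limma adjusted p = 0.00142) and 1.44 ± 0.17 SE (0.00082), and both calls were made in every fit without a library. SZF1 had 446 and 482 in Col-0, 1559 and 2536 in hag1, 1936 and 3449 in ada2b, with 787 and 1196 in scs1 scs2a. It was called above scs1 scs2a in hag1 (1.03 ± 0.31 SE, limma adjusted p = 0.0351) and in ada2b (1.41 ± 0.31 SE, 0.0111). Without library 1 of scs1 scs2a these calls were lost, at adjusted p = 0.209 and 0.083, as were that of hag1 without its library 2 (0.196) and that of ada2b without its library 2 (0.0663). AT5G51190 had 31.9 and 50.9 in Col-0, 275 and 727 in hag1, 229 and 566 in ada2b, with 81.0 and 144 in scs1 scs2a. Its hag1 difference from scs1 scs2a of 2.04 ± 0.54 SE (limma adjusted p = 0.0229) was not called without library 2 of hag1 (1.34, adjusted p = 0.134) or without library 1 of scs1 scs2a (1.62, adjusted p = 0.145). AT5G51190 also lies under AT5G51180 on the opposite strand over 965 bases, and since the use of strand in counting is not given in the sources used here, their reads cannot be told apart.

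The 2 libraries of a genotype disagreed in a shared direction for these regulators. In 7 of the 8, library 2 exceeded library 1 in all 4 genotypes, which held for 14 of the 80 members (17.5%) and for 4.89% of all tested genes. STZ, for example, had 91.1 and 151 in Col-0, 376 and 939 in hag1, 552 and 1029 in ada2b, with 237 and 368 in scs1 scs2a. Within the same library number, L of STZ was 2.03 and 2.63 in hag1, 2.58 and 2.76 in ada2b, with 1.37 and 1.28 in scs1 scs2a. DIC2, a mitochondrial dicarboxylate carrier, had 59.8 and 133 in Col-0, 273 and 1010 in hag1, 258 and 731 in ada2b, with 193 and 307 in scs1 scs2a. Over all 8 libraries no mutant pair was called for STZ, WRKY40, CAF1b or DIC2, which depends on the fit. The excess of STZ in ada2b over scs1 scs2a (1.35) was called without either library of Col-0 or of hag1 (limma adjusted p = 0.0279 to 0.0489), and that in hag1 without library 1 of hag1 (1.67, 0.0351). WRKY40 was called above scs1 scs2a in ada2b without library 1 of ada2b (1.67, limma adjusted p = 0.0453), and CAF1b in hag1 above ada2b and scs1 scs2a without library 1 of hag1 (1.04 and 1.18, 0.0292 and 0.0274). Across all 80 members within the same library number, the median L was 2.18 and 2.18 in hag1, 1.77 and 1.85 in ada2b, with 1.21 and 1.44 in scs1 scs2a. What the library number marks is not stated in the labels, and its part in the members' levels was not tested. In scs1 scs2a, library 2 exceeded library 1 for 62 of the 80 members (77.5%), beside 47.8% of all tested genes.

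A list of 32 genes known for rapid responses to touch, wounding, cold or elicitors holds 7 members (SZF1, STZ, RHL41, WRKY40, AT5G51190, CAF1b and DIC2). It was 1 of 16 gene lists and 14 gene families scored, of which 3 held 2 or more members and 22 held none. The 7 members in it were chosen on the same differences from Col-0. In scs1 scs2a, limma called 5 of the 32 above Col-0, 4 of them outside the members, so most of the 7 were not called. Because of that choice, the list is described by its other 25 genes. These are the genes that missed the rule in a mutant or on level. That can lower their counts and medians, in scs1 scs2a for example, so they are not free of the rule either. The list was drawn up with earlier results of these data known. Of these 25, 19 rose in hag1 and 17 in ada2b, and 4 in scs1 scs2a by limma, beside 21.3, 24.7 and 7.86% of all tested genes, and the rest were not called. Their median difference from Col-0 was 1.22, 1.0 and 0.48, against 0, 0.03 and 0 over all tested genes. The abundant NHL3, a membrane protein of pathogen responses, had 1127 and 1150 normalised counts in Col-0, 2165 and 2986 in hag1, 1885 and 2639 in ada2b, with 1671 and 1865 in scs1 scs2a. MYBR1, a MYB factor of stress responses, had 897 and 1103, 2689 and 2753, 1881 and 2420, and 1699 and 1928 in the same order. Both rose in all 3 mutants without overlap with Col-0. Library 2 exceeded library 1 in all 4 genotypes for 19 of the 25 genes (76.0%). Their summed level was 7956 and 9315 in Col-0, 18214 and 26393 in hag1, 16814 and 26463 in ada2b, with 11252 and 13048 in scs1 scs2a. When a library was left out, 14 to 24 of them rose in hag1 and 12 to 19 in ada2b, the lowest counts being those without library 2 of the mutant. In scs1 scs2a 1 to 6 did, with 2 and 1 without library 1 and 2 of Col-0 and likewise of scs1 scs2a, and 6 without either library of ada2b. Rises were not particular to this list. Energy starvation, a list with no member, had 7 of 9 genes called above Col-0 for hag1, 7 for ada2b and 1 for scs1 scs2a. Jasmonate genes, also without a member, went the other way. Of 16, limma called 2 higher and 5 lower for hag1, and 1 higher and 10 lower for ada2b. Differences between lists were not tested.

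**Figure D3:**
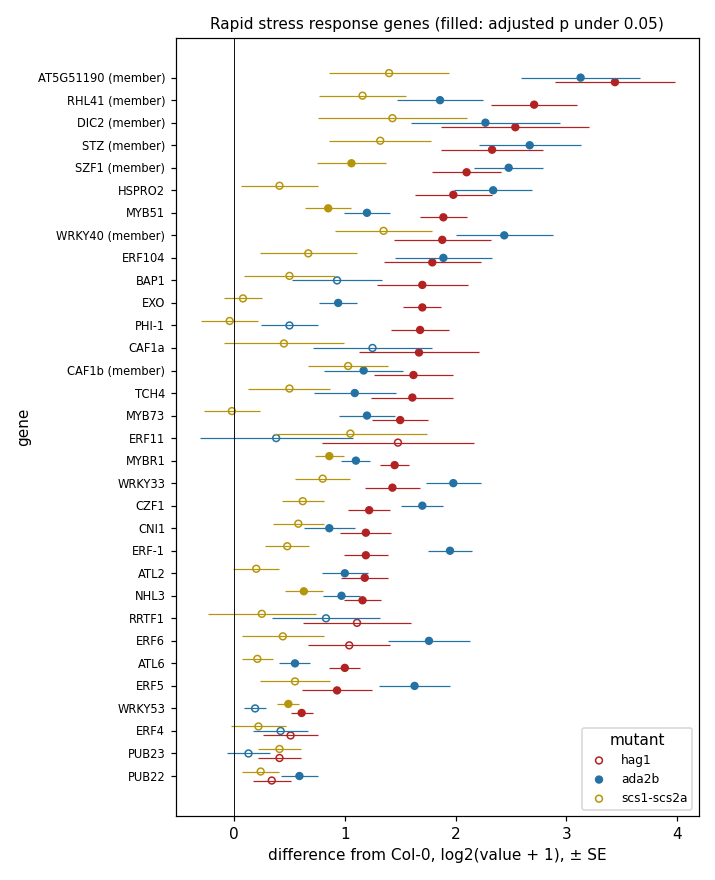
Difference from Col-0 on the log2(value + 1) scale, with its standard error from limma, for the 32 genes of the rapid stress response list in hag1 (red), ada2b (blue) and scs1 scs2a (yellow), ordered by hag1. Filled points passed an adjusted p of 0.05, which 26, 24 and 5 genes did, and the 7 members, chosen on these differences, are marked in the gene names.

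The start regions of the members were searched for short motifs. RefSeq's TAIR10.1 annotation gave a window from 250 bases before to 50 bases after the gene start for all 80 members and for 32546 genes of the table, and both strands were read. The W-box that WRKY factors bind, spelled TTGACC or, with another last letter, TTGACT, was present in 40 members (50.0%), in 31.8% of all genes and in 32.2% of tested genes with a mean of 50 or more. TGACG, the core of the as-1 element of TGA factors, was present in 29 members (36.2%) and in 23.0% of all genes. Its letters can overlap those of a W-box. The TATA box, TATAAA, was present in 48 members and in 50.6% of all genes. TGGGCC, the site II element known from growth and ribosomal protein genes, was present in 5 members (6.25%) and in 14.3% of all genes. The rapid stress response element CGCGTT was present in 6.25% of members and 3.36% of all genes, the G-box CACGTG in 7.5% and 7.11%, and GCCGCC in 2.5% and 2.63%. Shares of 7.5% and 6.19% were found for AAACCCTA, the telo-box, and of 3.75% and 5.36% for AAATATCT, the evening element. The mitochondrial dysfunction motif was present in 1.25% of members and 0.873% of all genes. A match describes these letters only and is not a site. No test was made of these shares.

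To show what such a start region looks like, the 250 bases before the gene start are printed for 3 members that each hold 3 W-boxes and no other annotated gene in the window, as chosen after the matches were counted. They read 5′ to 3′ in the direction of the gene, in RefSeq's TAIR10.1, with the letters of each W-box, on either strand, in capitals. GSTF7 is at chr1:659981-660230 (minus strand), SZF1 at chr3:20775970-20776219 (plus strand) and AT5G64120 at chr5:25661008-25661257 (minus strand).
GSTF7: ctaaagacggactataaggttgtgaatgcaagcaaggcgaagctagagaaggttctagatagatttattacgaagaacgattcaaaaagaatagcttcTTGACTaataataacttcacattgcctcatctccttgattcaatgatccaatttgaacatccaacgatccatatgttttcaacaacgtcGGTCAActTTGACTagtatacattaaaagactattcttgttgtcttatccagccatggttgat
SZF1: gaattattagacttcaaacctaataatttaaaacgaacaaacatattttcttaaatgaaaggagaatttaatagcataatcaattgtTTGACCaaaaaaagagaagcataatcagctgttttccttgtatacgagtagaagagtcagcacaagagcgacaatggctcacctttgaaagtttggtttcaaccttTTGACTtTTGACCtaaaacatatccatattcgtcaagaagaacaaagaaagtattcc
AT5G64120: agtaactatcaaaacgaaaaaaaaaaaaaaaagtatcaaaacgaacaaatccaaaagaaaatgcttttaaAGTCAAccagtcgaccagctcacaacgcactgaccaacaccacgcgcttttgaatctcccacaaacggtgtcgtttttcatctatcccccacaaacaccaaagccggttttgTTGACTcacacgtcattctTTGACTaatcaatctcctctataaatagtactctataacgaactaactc
In GSTF7 the matches begin 152, 63 and 55 bases before the start, in SZF1 163, 57 and 50, and in AT5G64120 180, 68 and 49.

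**Figure D4:**
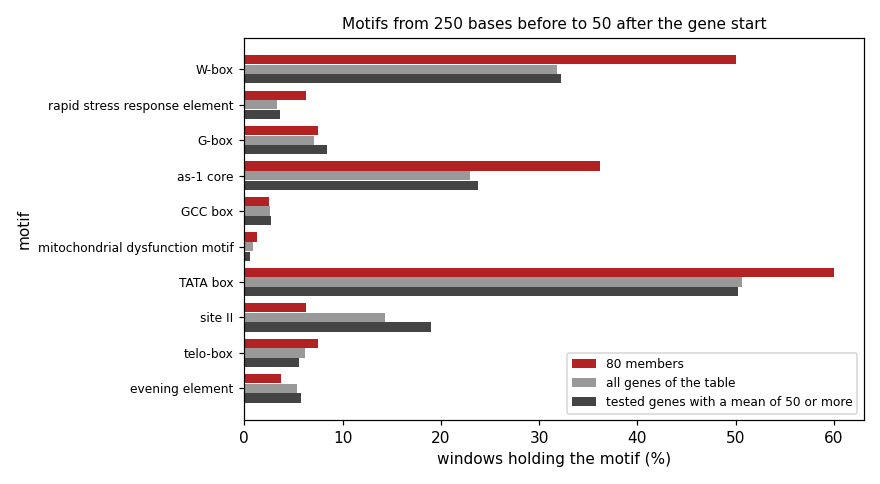
Share of start regions, from 250 bases before to 50 after the gene start, that hold each of 10 motifs, for the 80 members, for all genes of the table and for tested genes with a largest mean of 50 or more. The W-box bar is at 50.0% for the members and 31.8% for all genes, and the site II bar at 6.25% and 14.3%.

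Genes of recognition at the cell surface and inside the cell formed a group of 6. HR4, a homologue of the RPW8 resistance proteins, and CRK30, a cysteine-rich receptor-like kinase, were among the 15 members with the largest L in their least affected mutant. HR4 had 247 and 239 normalised counts in Col-0, 1395 and 1070 in hag1, 957 and 860 in ada2b, with 1041 and 1231 in scs1 scs2a. Only 83.9% of the 50-base windows of HR4 were unique in the genome, so some of its reads could have come from elsewhere. CRK30 had 108 and 119 in Col-0, 616 and 430 in hag1, 429 and 326 in ada2b, with 503 and 718 in scs1 scs2a. For both genes each mutant library lay above 2-fold of each Col-0 library. CRK30 was called lower in ada2b than in scs1 scs2a (-0.68 ± 0.22 SE, limma adjusted p = 0.0443), but not without library 2 of scs1 scs2a (-0.43, adjusted p = 0.254), library 1 of ada2b (-0.88, 0.0535) or library 2 of ada2b (-0.48, 0.228), with a pseudocount of 0.1 (0.0538) or with no filter on low values (0.183). The neighbouring genes AT5G41740 and AT5G41750 encode TIR-NBS-LRR resistance proteins, and 86.7% and 87.7% of their 50-base windows were unique in the genome. AT5G41750 had 43.4 and 36.4 in Col-0, 219 and 290 in hag1, 150 and 332 in ada2b, with 119 and 101 in scs1 scs2a. WAKL2, a wall-associated kinase-like gene, was highest in ada2b, at 146 and 160 against 94.8 and 88.2 in hag1, 72.8 and 70.5 in scs1 scs2a and 42.1 and 24.8 in Col-0. Its difference between hag1 and ada2b of -0.73 ± 0.23 SE (limma adjusted p = 0.0334) was not called without any single library of either mutant, with adjusted p from 0.0852 to 0.138, or without either library of scs1 scs2a (0.0538). The calcium-binding EF-hand genes AT3G29000 and AT5G39670 had L of 2.41 and 2.11 in hag1, 1.69 and 1.14 in ada2b, with 1.34 and 1.26 in scs1 scs2a. AT5G39670 shares 873 of its 889 bases with AT5G05995 on the opposite strand, so the reads of these overlapping genes cannot be told apart.

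Proteases, their inhibitors and small secreted peptides numbered 7, of which 6 were called above ada2b and 5 above scs1 scs2a in hag1, beside 21.2 and 14.9% of all tested genes. CEP1, a cysteine protease known from programmed cell death, had 13.2 and 19.1 normalised counts in Col-0, 326 and 314 in hag1, 66.1 and 72.0 in ada2b, with 48.7 and 66.9 in scs1 scs2a. It was higher in hag1 by 2.20 ± 0.23 SE than in ada2b (limma adjusted p = 0.000165) and by 2.47 ± 0.23 SE than in scs1 scs2a (0.000218). MC2, a metacaspase, had 57.6 and 54.5 in Col-0, 424 and 352 in hag1, 181 and 153 in ada2b, with 139 and 134 in scs1 scs2a. UPI, a serine protease inhibitor of the potato inhibitor I family, had 96.7 and 90.8, 759 and 544, 389 and 359, and 272 and 298 in that order. All 3 genes were called above both other mutants in hag1 in every fit without a library. THI2.2, a thionin of the antimicrobial peptide class, went the other way, with 229 and 323 in hag1, 533 and 494 in ada2b, 292 and 234 in scs1 scs2a, and 142 and 119 in Col-0. It was lower in hag1 than in ada2b by call (-0.91 ± 0.18 SE, limma adjusted p = 0.00369). AT4G22470, annotated as a protease inhibitor or lipid transfer family protein, and the uncharacterised AT4G22467 lie on opposite strands over 1317 shared bases and had nearly the same values. They had 618 and 430 and 562 and 387 in hag1, against 39.3 and 50.0 and 37.1 and 43.6 in Col-0, and cannot be told apart as 2 responses. AT4G22513, annotated as a bifunctional inhibitor or lipid transfer protein, shares its 631 bases with AT4G22510 on the opposite strand. The reads of AT4G22513 and AT4G22510 cannot be told apart either.

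Peroxidases and other redox proteins numbered 7. PRXCA, a secreted class III peroxidase, had 404 and 431 normalised counts in Col-0, 2381 and 2602 in hag1, 2790 and 2714 in ada2b, with 1516 and 2010 in scs1 scs2a. It was called above scs1 scs2a by 0.66 ± 0.12 SE in ada2b (limma adjusted p = 0.00456) and by 0.51 ± 0.12 SE in hag1 (0.0119), the latter not without library 2 of hag1 (adjusted p = 0.0704). The neighbouring peroxidase genes AT5G64110 and AT5G64120 differed in the order of their means, which was called only in part. AT5G64110 was highest in hag1, with 1634 and 1563 against 838 and 1057 in ada2b, 833 and 762 in scs1 scs2a, and 257 and 341 in Col-0. AT5G64120, whose start region is printed above, had 5807 and 3425 in hag1, 6971 and 5550 in ada2b, 2532 and 3545 in scs1 scs2a, and 1136 and 879 in Col-0, and its hag1 and ada2b libraries overlapped. Its hag1 level was not called different from ada2b or scs1 scs2a (limma adjusted p = 0.163 and 0.124). Its excess in ada2b over scs1 scs2a was called (1.05 ± 0.25 SE, limma adjusted p = 0.0165), but not in every fit without a library. DOX1, a dioxygenase that oxidises fatty acids, had 1824 and 1755 in Col-0 and 3697 to 5877 over the 6 mutant libraries. CSD1, the cytosolic copper/zinc superoxide dismutase, had 742 and 825 in Col-0, 1713 and 1500 in hag1, 2721 and 2458 in ada2b, with 2137 and 2114 in scs1 scs2a. It was called lower in hag1 than in ada2b (-0.69 ± 0.08 SE, limma adjusted p = 0.000345) and than in scs1 scs2a (-0.41 ± 0.08 SE, 0.00738), in every fit without a library.

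Conjugating and oxidising enzymes numbered 9, of which 4 were phi-class glutathione transferases, enzymes that attach glutathione to reactive compounds. GSTF2 reached the highest level of any member per length, at 12900 normalised counts per kilobase of exon in hag1 against 2580 in Col-0. Its libraries had 4194 and 3397 normalised counts in Col-0, 21358 and 16529 in hag1, 11275 and 12072 in ada2b, with 8382 and 9413 in scs1 scs2a. It was higher in hag1 than in ada2b by 0.69 ± 0.13 SE (limma adjusted p = 0.00391) and than in scs1 scs2a by 1.08 ± 0.13 SE (0.000835). GSTF2 shares 1442 bases with TOC159 on the other strand, which had means of 12400, 25400, 21300 and 16200 in Col-0, hag1, ada2b and scs1 scs2a, so part of its reads may not be its own. The adjacent GSTF6 and GSTF7 were close to each other and near level across mutants. GSTF6 had 955 and 890 in Col-0, 2671 and 2141 in hag1, 2270 and 2080 in ada2b, with 2085 and 2417 in scs1 scs2a, and no mutant pair was called for either gene. Unique 50-base windows made up 89.7% of GSTF6, so some of its reads could have come from GSTF7. Of 47 glutathione transferases tested, 13 rose and 16 fell in hag1, 13 rose and 21 fell in ada2b, and 10 rose and 7 fell in scs1 scs2a. The 47 include the 4 members, which were chosen on these same differences from Col-0, so the rising counts are not independent of the rule. Of all tested genes, 21.3% rose and 23% fell in hag1. The shares were 24.7% and 23.4% for ada2b, with 7.86% and 12.1% for scs1 scs2a.

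**Figure D5:**
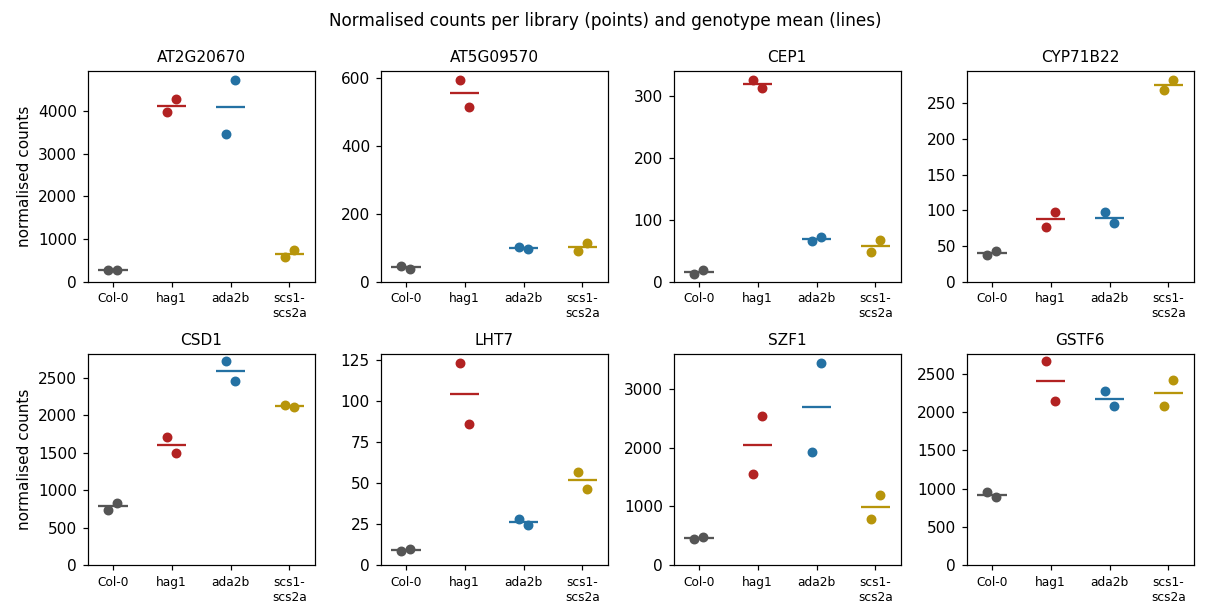
Normalised counts of 8 members in the 2 libraries of each genotype (points) with the genotype mean (lines). AT5G09570 and CEP1 are set apart in hag1, AT2G20670 in hag1 and ada2b, and CYP71B22 in scs1 scs2a, where its libraries had 268 and 283.

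CYP71B22, a cytochrome P450, was the member called above both other mutants in scs1 scs2a. It had 37.1 and 43.6 normalised counts in Col-0, 76.3 and 98.1 in hag1, 98.1 and 81.7 in ada2b, with 268 and 283 in scs1 scs2a. The differences of -1.66 ± 0.18 SE for hag1 (limma adjusted p = 0.000421) and -1.61 ± 0.18 SE for ada2b (0.000539) were called in every fit without a library. CYP706A2 had 242 and 150 in Col-0, 402 and 645 in hag1, 528 and 910 in ada2b, with 792 and 926 in scs1 scs2a, and only 39.6% of its 50-base windows were unique. Of 189 cytochrome P450 genes tested, 37 rose and 56 fell in hag1, 27 rose and 79 fell in ada2b, and 27 rose and 28 fell in scs1 scs2a, beside the same shares of all tested genes as for the glutathione transferases. The 189 include CYP71B22, CYP706A2 and CYP94B3, members chosen on these same differences from Col-0.

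Transporters numbered 8. LHT7, of the lysine and histidine transporter family, had 8.72 and 9.59 normalised counts in Col-0, 123 and 86.1 in hag1, 28.0 and 24.3 in ada2b, with 56.6 and 46.6 in scs1 scs2a. The 3 mutants did not overlap, and hag1 was above ada2b by 1.94 ± 0.25 SE (limma adjusted p = 0.000483) in every fit without a library, whereas the 2 calls against scs1 scs2a were lost in some of them, with adjusted p up to 0.109 and 0.122. By estimated reads, 17 in Col-0 stood against 205 in hag1, a ratio of 12.1 with a 95% exact interval of 7.35 to 21.1 for counting error. GPT2, the plastid glucose 6-phosphate translocator, had 30.4 and 96.1 in Col-0, 601 and 402 in hag1, 153 and 111 in ada2b, with 150 and 176 in scs1 scs2a. Its L in ada2b was 2.3 within library 1 and 0.2 within library 2. The excess of GPT2 in hag1 over scs1 scs2a was 1.59 ± 0.45 SE (limma adjusted p = 0.0296). Without any single library of either mutant it was 1.3 to 1.88 and not called. Its hag1 excess over ada2b of 1.91 ± 0.45 SE (limma adjusted p = 0.00954) was not called without library 1 of hag1 (adjusted p = 0.0669) or library 2 of ada2b (0.0621). AT5G14120, a major facilitator family protein, was among the most abundant members per length, at 4560 normalised counts per kilobase in hag1 and 703 in Col-0. It had 1824 and 1675 in Col-0, 10965 and 11741 in hag1, 9252 and 10999 in ada2b, with 3415 and 4278 in scs1 scs2a, and was above scs1 scs2a by 1.57 ± 0.12 SE in hag1 (limma adjusted p = 9.3e-05) and 1.40 ± 0.12 SE in ada2b (0.000158). The noncoding RNA AT5G02155, with 56.6 and 62.9 in Col-0 and 431 and 452 in hag1, lies within AT5G14120 on the opposite strand over 374 bases. Its reads cannot be told apart from those of AT5G14120, so its values cannot be taken as a separate response. ABCB21, an auxin transporter, and AST91, of the sulfate transporter family, lay close to the bound, with L of 1.08 to 1.32.

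Hormone genes numbered 5. PYL5 and PYL6 encode abscisic acid receptors. PYL5 had 314 and 357 normalised counts in Col-0, 2026 and 1846 in hag1, 1361 and 1444 in ada2b, with 700 and 823 in scs1 scs2a. All 3 pairs were called in that order, at 0.46 ± 0.10 SE (limma adjusted p = 0.00516), 1.35 ± 0.10 SE (8.25e-05) and 0.88 ± 0.10 SE (0.000514). PYL6 had 107 and 132 in Col-0, 740 and 647 in hag1, 300 and 213 in ada2b, with 309 and 355 in scs1 scs2a, and here ada2b and scs1 scs2a were not called different. CYP94B3, which hydroxylates the hormone jasmonoyl-isoleucine, had 28.4 and 35.1 in Col-0 and 58.9 to 107 over the mutant libraries.

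Metabolic genes numbered 6, with 5 called above scs1 scs2a and 4 above ada2b in hag1, beside 14.9 and 21.2% of all tested genes. ERD5, proline dehydrogenase, had 1501 and 1517 normalised counts in Col-0, 7082 and 6262 in hag1, 4077 and 4380 in ada2b, with 3369 and 3013 in scs1 scs2a. Like PYL5 it had all 3 pairs called, at 0.66 ± 0.08 SE, 1.06 ± 0.08 SE and 0.41 ± 0.08 SE (limma adjusted p = 0.000307, 8.35e-05 and 0.00596). GDPD2, a glycerophosphodiester phosphodiesterase of phosphate starvation, had 212 and 209 in Col-0, 1687 and 1630 in hag1, 595 and 879 in ada2b, with 413 and 481 in scs1 scs2a, and was the remaining gene of the 3 with this order, which 0.876% of all tested genes had. Its call between ada2b and scs1 scs2a was lost without library 1 of scs1 scs2a (0.59, limma adjusted p = 0.0896). ARD3, an acireductone dioxygenase of methionine salvage, had 16.3 and 17.1 in Col-0, 121 and 189 in hag1, 69.1 and 38.8 in ada2b, with 51.7 and 49.5 in scs1 scs2a. AT2G20670, a DUF506 protein, showed the widest gap to scs1 scs2a. It had 271 and 284 in Col-0, 3985 and 4276 in hag1, 3466 and 4725 in ada2b, and only 571 and 750 in scs1 scs2a. The excess over scs1 scs2a was 2.65 ± 0.15 SE in hag1 (limma adjusted p = 4.19e-05) and 2.63 ± 0.15 SE in ada2b (4.7e-05), and the hag1 and ada2b libraries overlapped, with a difference of 0.03 ± 0.15 SE (0.908).

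Cell wall and secreted proteins numbered 7, and limma called none of them different between hag1 and ada2b (0 had an unadjusted p under 0.05), where 21.2% of all tested genes were called higher and 21.6% lower. The lectin family gene AT1G78830 had 1740 and 1831 normalised counts in Col-0, 11554 and 10124 in hag1, 10737 and 11141 in ada2b, with 4158 and 5195 in scs1 scs2a. The GDSL lipase family gene AT1G54010 had 1797 and 1887, 12733 and 10162, 13253 and 11998, and 4479 and 4993 in the same order. GH9A3, a glycosyl hydrolase of the endoglucanase family, had 53.4 and 59.7, 349 and 343, 346 and 365, and 159 and 173. In all 3 the hag1 and ada2b libraries were above those of scs1 scs2a, by 1.06 to 1.41 on the log2 scale, in every fit without a library. The Ole e 1 family genes AT3G16660 and AT3G16670, which lie on chromosome 3 with 2 genes between them, had no mutant pair called over all 8 libraries. That depends on the fit, since hag1 lay above ada2b for AT3G16660 in a fit of those genotypes alone (0.29, limma adjusted p = 0.0217), and ada2b below scs1 scs2a for AT3G16670 (-0.54, 0.0272).

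Among the other proteins, AT5G09570, a Cox19-like CHCH family protein, had 46.6 and 38.5 normalised counts in Col-0, 593 and 515 in hag1, 101 and 95.3 in ada2b, with 89.8 and 114 in scs1 scs2a. It showed the largest difference of any member between hag1 and ada2b, 2.48 ± 0.16 SE (limma adjusted p = 2.53e-05), and exceeded scs1 scs2a by 2.44 ± 0.16 SE (6.18e-05). The RING/U-box gene AT2G45135 had 26.4 and 43.5 in Col-0, 392 and 412 in hag1, 170 and 162 in ada2b, with 136 and 133 in scs1 scs2a. RTFL12, of the ROTUNDIFOLIA-like peptide family, had 7.81 and 18.0 in Col-0 and library 2 above library 1 in every genotype, at 34.0 and 112 in hag1 for example.

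The member with the largest L in all 3 mutants was the noncoding RNA AT1G08757, at 5.31, 4.73 and 3.96. It had 6.38 and 0.0508 normalised counts in Col-0, 199 and 133 in hag1, 137 and 84.4 in ada2b, with 51.5 and 77.4 in scs1 scs2a. An estimated 6 reads in Col-0 stood against 325, 224 and 136, giving ratios of 54.2 (95% exact interval 24.6 to 149), 37.3 (16.9 to 103) and 22.7 (upper bound 62.8) for counting error only. No mutant pair was called for it over all 8 libraries, but its excess of 1.35 in hag1 over scs1 scs2a was called without library 1 or 2 of Col-0 (limma adjusted p = 0.0164 and 0.014) and in a fit of those 2 genotypes alone (0.0102). AT5G41761, an uncharacterised protein, had 17.4 and 19.2 in Col-0, 291 and 272 in hag1, 182 and 140 in ada2b, with 102 and 144 in scs1 scs2a. AT5G15360, also uncharacterised, had 8.59 and 3.28 in Col-0, 76.2 and 90.2 in hag1, 34.0 and 26.2 in ada2b, with 21.1 and 16.1 in scs1 scs2a. AT2G41105 overlaps TCH3, a gene set aside by the rule, over 827 bases on the opposite strand, so its own reads cannot be told apart from those of TCH3.

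The members differed from other genes in exon number and coding length. Of the 78 protein-coding members, 23 had a single exon (29.5%), beside 16.1% of tested protein-coding genes and 12.4% of those with a mean of 50 or more. Their median coding length was 925.5 bases, beside 1116 and 1185. These are descriptions and were not tested. They lie on chromosomes 1 to 5 in numbers of 19, 9, 16, 15 and 21. Neighbouring pairs of members with no gene between them were GSTF7 and GSTF6, AT4G22467 and AT4G22470, AT5G14120 and AT5G02155, AT5G41740 and AT5G41750, and AT5G64110 and AT5G64120. In all, 17 members overlap another measured gene, 15 of them on the opposite strand. The share of all measured genes with such an overlap was not counted.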

How the data were processed

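The authors deposited a table of normalised read counts (a signal that is not whole and not per length) for 32548 genes in 8 libraries. Per the submitters' processing notes, HISAT2, edgeR and the TAIR10 build were used. Not given in the sources used here are versions, the counter, the annotation, filters and strand. All identifiers matched RefSeq's TAIR10.1, the source of symbols, coordinates, lengths and start regions. Low values did not give whole reads for every gene, so no count model was run. The design had foreseen counts, and its fallback was used. The members and lists were chosen with earlier results of these data known, and roles and printed start regions after values were seen.

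Values were taken as log2(value + 1), and a gene was kept when 2 or more libraries had a value of 1 or more (25459). A single limma 3.58.1 model (R 4.3.3, trend on mean level) took genotype as the sole term across the 8 libraries, with 4 residual and 4.42 prior degrees of freedom, and its two-sided p-values were adjusted over all genes by Benjamini-Hochberg, at 0.05. The script was tested on simulated data. Differences on this scale understate changes of low genes. Named were the 15 members with the largest lowest L, the 10 most abundant, up to 5 each way per mutant pair, members of lists, those at the thresholds, neighbours, and the longest and shortest by coding length, beside genes singled out after their values were seen. Same-numbered libraries did not deviate together over all genes, with correlations of -0.0478 to 0.0552, so no pairing was taken. That measure does not speak for single genes. Library 2 exceeded library 1 in all 4 genotypes for 17.5% of members, beside 4.89% of all tested genes. The unblocked fit counts such a shared shift as spread, and fits with a replicate block are given below. Alternatives were other scalings, another pseudocount, other filters, a 2-fold minimum, a fit of 2 genotypes, a replicate block, leaving out each library, and start regions of 250 bases alone. No column of the table went unused. Intervals on estimated reads cover counting error only.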

Additional observations from a re-analysis of the deposited data

How the results depend on the processing

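With 2 libraries per genotype, calls can rest on single libraries, and depth limits members with few Col-0 reads, such as AT1G08757 (6). With a 2-fold minimum, hag1 exceeded ada2b for 14 members and fell below it for 0 by limma, 6 being called without that minimum. hag1 fell below scs1 scs2a for 1, and ada2b was above scs1 scs2a for 12 and below for 1. With no filter on low values the counts were 17 and 3 for hag1 against ada2b, 1 lower for hag1 against scs1 scs2a, and 12 and 1 for ada2b against scs1 scs2a. A fit of only the 2 genotypes gave 4 lower for hag1 and 5 lower for ada2b against scs1 scs2a. Leaving out each library in turn, members lower in hag1 than in ada2b ranged from 3 to 7, and ada2b against scs1 scs2a from 12 to 26 higher and 1 to 5 lower. Over all genes, the 2-fold minimum left 1276 genes above and 1695 below Col-0 for hag1, 644 and 2940 for ada2b, 309 and 661 for scs1 scs2a, and 2058 and 662, 862 and 793, and 211 and 1496 for the pairs in the order above. No filter gave 1018 and 1780 for scs1 scs2a against Col-0 and 2464 lower for ada2b against scs1 scs2a. Leaving out a library gave 476 to 2094 and 1207 to 3067 for scs1 scs2a against Col-0, 2228 to 3636 and 2111 to 3699 for hag1 against scs1 scs2a, and 1736 to 3803 and 2193 to 3878 for ada2b against scs1 scs2a. The rule itself kept 30 genes when each mutant library had to lie 2-fold above each Col-0 library. Leaving out a library gave 68 genes (62 shared with the 80, without library 2 of scs1 scs2a) to 99 (68 shared, without library 2 of Col-0). Upper-quartile scaling kept 78 of the 80. Median-ratio scaling kept the same 80 and left every count of calls unchanged, so it hardly altered the deposited values and is no separate check. With the replicate number as a block, the pairs had 28 and 5, 41 and 3, and 27 and 2 members higher and lower, each within 1.5 times the unblocked count, and 6 of the 27 members with no pair called gained a call. Among these, STZ was above scs1 scs2a in hag1 and ada2b (limma adjusted p = 0.00338 and 0.00119), as was DIC2 (0.0141 and 0.0403), and WRKY40 in ada2b (0.00685). The block lost CRK30 between ada2b and scs1 scs2a (0.0593). No named member reversed in a called pair under the alternatives run. In start regions of 250 bases alone, 3 members held a G-box and 3 a site II element, against 6 and 5. Causes of these shifts were not tested.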
